A study of Homo sapiens with 1 sample.

Results

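miR-221 and miR-222 are a pair of related human miRNAs, and their 4 mature products, hsa-miR-221-3p, hsa-miR-222-3p, hsa-miR-221-5p and hsa-miR-222-5p, were examined on an array of 2549 human miRNAs. They were chosen by name, whatever their signal, as the non-control spots labelled with one of these 4 products. Earlier results of these data were known when the choice was made. The RNA came from DLD-1, an established human cell line of colorectal carcinoma, after transfection of a negative control plasmid (pLVX-NC). The companion sample of cells overexpressing circLONP2, a circular RNA, was not analysed here, so no response to circLONP2 was measured. With 1 array of 1 condition there was no biological replicate, the spots are technical repeats, and no test between conditions was made.

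A miRNA precursor is a folded hairpin from which a 5p and a 3p product can be cut, and usually one of the pair is loaded into Argonaute as the guide. The guide finds its messenger RNAs mainly through its seed, bases 2 to 8. The 3p products of miR-221 and miR-222 are known as guides that repress CDKN1B, the messenger RNA of p27, an inhibitor of cyclin-dependent kinases that holds cells before DNA replication, and they are often abundant in carcinomas. The 5p products are usually regarded as passenger strands. In the reference annotation the pair lies in a shared long non-coding host transcript, MIR222HG.

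The mature sequences show why the pair is treated as one family. They are RefSeq entries on GRCh38.p14, written 5′ to 3′, and the capitals mark the seed. The table used here matched 3 of the 4 products, and miR-221-5p was not matched.
hsa-miR-221-3p: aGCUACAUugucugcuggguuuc
hsa-miR-222-3p: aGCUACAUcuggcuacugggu
hsa-miR-222-5p: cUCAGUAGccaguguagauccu

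The first 8 bases, agcuacau, are the same in miR-221-3p and miR-222-3p. Behind them the longest stretch in common is 6 bases, cugggu. The seed GCUACAU was held by 2 of 2370 human mature miRNA names in the reference, which are these 3p products, so no other human miRNA in that table shares their family. The seed of miR-222-5p, UCAGUAG, was found in no other name of that table. Outside the family, the longest run of bases in common with miR-221-3p was 9, found in 5 other mature miRNAs, of which miR-4686 and miR-6779-5p were detected on the array. For miR-222-3p it was 8 bases, also found in 5 others, of which miR-3126-3p and miR-7157-3p were detected. The brightest of the 5 that share a run with miR-221-3p averaged 129.6 in scanner units, beside 141.1 for miR-221-3p. The brightest of the 5 that share one with miR-222-3p averaged 84.5, beside 124.9 for miR-222-3p. Binding of these miRNAs to the miR-221 and miR-222 probes was not tested.

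The hairpins are shown to place each product in its precursor, with the mature products that the table lists in capitals. Each hairpin is 110 bases long and is read from the minus strand.
MIR221: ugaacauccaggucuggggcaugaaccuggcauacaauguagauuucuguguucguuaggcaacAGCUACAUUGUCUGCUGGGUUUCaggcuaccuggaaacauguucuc
MIR222: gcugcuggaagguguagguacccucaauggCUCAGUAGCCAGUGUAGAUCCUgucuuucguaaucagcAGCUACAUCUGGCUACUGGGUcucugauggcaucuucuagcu

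MIR221 lies at chrX:45746157-45746266 and MIR222 at chrX:45747015-45747124, with 748 bases between them. Mature miR-221-3p lies at chrX:45746180-45746202, miR-222-3p at chrX:45747036-45747056 and miR-222-5p at chrX:45747073-45747094. The hairpins fall within MIR222HG, a long non-coding RNA gene at chrX:45745214-45770267, near its 3′ end. MIR222 comes first in the direction of transcription, 23143 bases from the host's start, and MIR221 follows 24001 bases from it. No further miRNA hairpin was annotated within 10 kb on the same strand. The annotation places the pair in 1 host gene, while the array reads only mature products and not the primary transcript.

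On the control array, the 3p products of both miRNAs were detected and the 5p products of both were not. Detection was the flag that the scanner software sets for a miRNA, and 2 of the 4 products carried it, beside 56.8% of all human miRNAs (1448 of 2549). Each product was read by 20 spots, spread over 2 probes for miR-221-3p, miR-222-3p and miR-221-5p and over 4 probes for miR-222-5p. Brightness is given in scanner units after the background correction of the scanner software. None of the spots was saturated. In RNA from a whole culture, fewer cells that express a miRNA and less of it per cell cannot be told apart.

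hsa-miR-221-3p, the guide product of MIR221, averaged a brightness of 141.1 ± 11.2 (SD over 20 spots). Its dimmest spot was at 123.4, the median at 140.6 and the brightest at 165.6. All 20 spots were well above background, so no spot fell near the level of the negative controls. Its brighter probe (A_25_P00010690) averaged 148.4 ± 8.80 (SD over 10 spots) and its dimmer probe (A_25_P00010689) 133.9 ± 8.48 (SD over 10 spots). The spot ranges of these probes overlapped, from 135.4 to 165.6 for the brighter and from 123.4 to 146.4 for the dimmer. Their log2 means differed by 0.15 (standard error 0.04 from the spots).

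hsa-miR-222-3p, which shares the seed, gave a different picture, because its probes disagreed. The brighter probe (A_25_P00012126) averaged 202.6 ± 8.27 (SD over 9 spots), with spots from 191.1 to 213.3 and a median of 200.9. Its remaining spot, at 241.5, was marked as an outlier by the software and was left out. The dimmer probe (A_25_P00012125) averaged 55.0 ± 3.60 (SD over 10 spots), with spots from 47.6 to 60.6 and a median of 55.7. The spots of these probes did not overlap, and the brighter probe was 3.68 times the dimmer, a log2 difference of 1.88 (standard error 0.04 from the spots). Within each probe the spots were tight, with a coefficient of variation of 4.08% for the brighter and 6.55% for the dimmer. For miR-221-3p the coefficients were 5.93% and 6.33%. All 19 spots used for miR-222-3p were well above background, and their mean of 124.9 lies where no spot was measured, between the groups of spots of its probes.

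**Figure D1:**
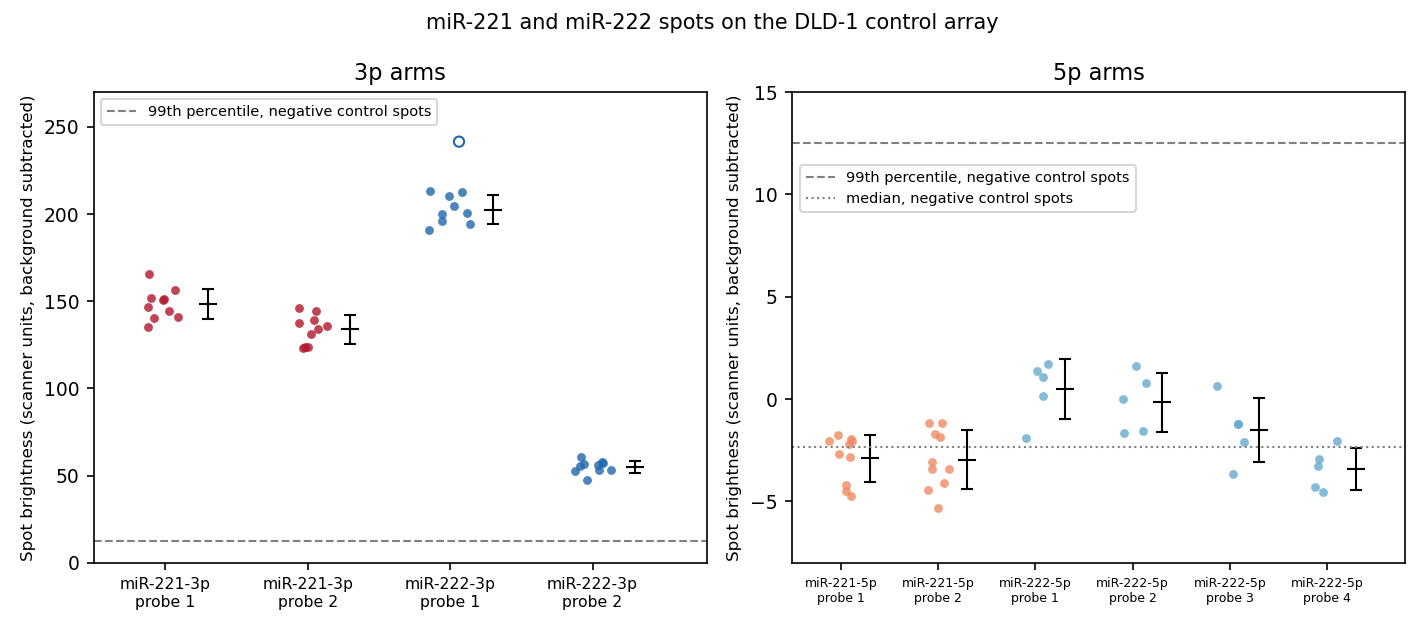
Brightness of every miR-221 and miR-222 spot on the DLD-1 control array, in scanner units after background subtraction, by probe (probe 1 is the brightest of each product). Filled points are spots used, the open point is the spot marked as an outlier, and black bars are the mean and SD over the spots used. The 3p spots lie between 47.6 and 241.5, above the dashed line, the 99th percentile of negative control brightness at 12.5, and the 5p spots lie between -5.32 and 1.72, below it. The panels have different vertical scales.

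The size of the miR-222-3p disagreement was read against the other miRNAs of the array. Among 834 detected miRNAs with 2 probes, all of whose spots were well above background, the median log2 difference between the probes was 0.23 (quartiles 0.09 and 0.53). For 62.4% of these miRNAs the difference was larger than that of miR-221-3p. For miR-222-3p, 27 of the 834 (3.24%) had a larger one. A difference over 1 on the log2 scale was seen for 106 of them (12.7%), and miR-222-3p is among these. Detected miRNAs with any spot not well above background were outside this set. These shares therefore hold for the set and not for all detected miRNAs. For miR-222-3p the level depended on the probe read. The sequences of the array probes were not used here, and the source of the disagreement was not tested.

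**Figure D2:**
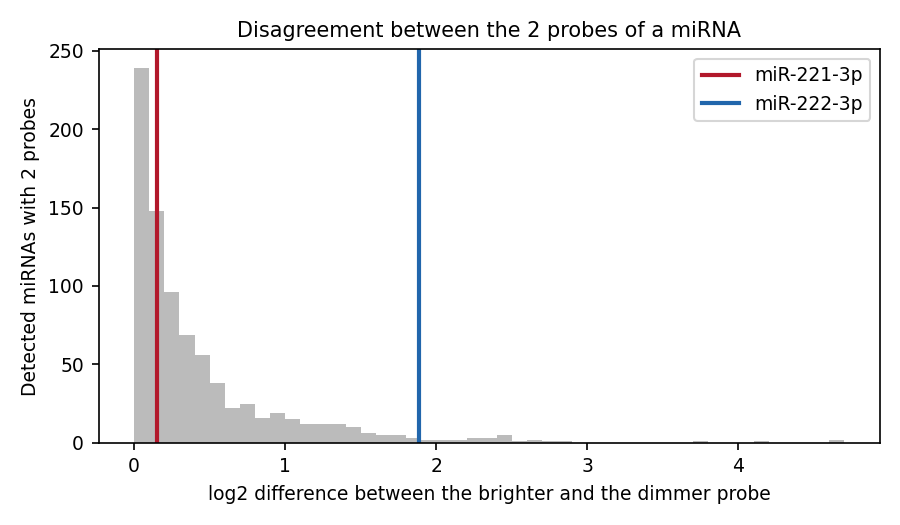
Histogram of the log2 difference between the brighter and the dimmer probe, for the 834 detected miRNAs with 2 probes, all of whose spots were well above background. The vertical lines mark miR-221-3p at 0.15 and miR-222-3p at 1.88, which is in the right tail.

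The 3p products were then compared with each other. Different probes bind with different strength, so an order of brightness between miRNAs is not an order of RNA amount. Averaged over probes on the log2 scale, miR-222-3p was 0.42 below miR-221-3p. The standard error of this difference was 0.03 from the spots alone and 0.94 over the probes, which makes the difference smaller than its probe error. All spots of the brighter miR-222-3p probe were brighter than every miR-221-3p spot, with a log2 difference of 0.45 between the brighter probes of each miRNA. All spots of the dimmer miR-222-3p probe were dimmer than every miR-221-3p spot, with a log2 difference of -1.28 between the dimmer probes. The order of the pair changed with the probe read and could not be settled on this array.

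**Figure D3:**
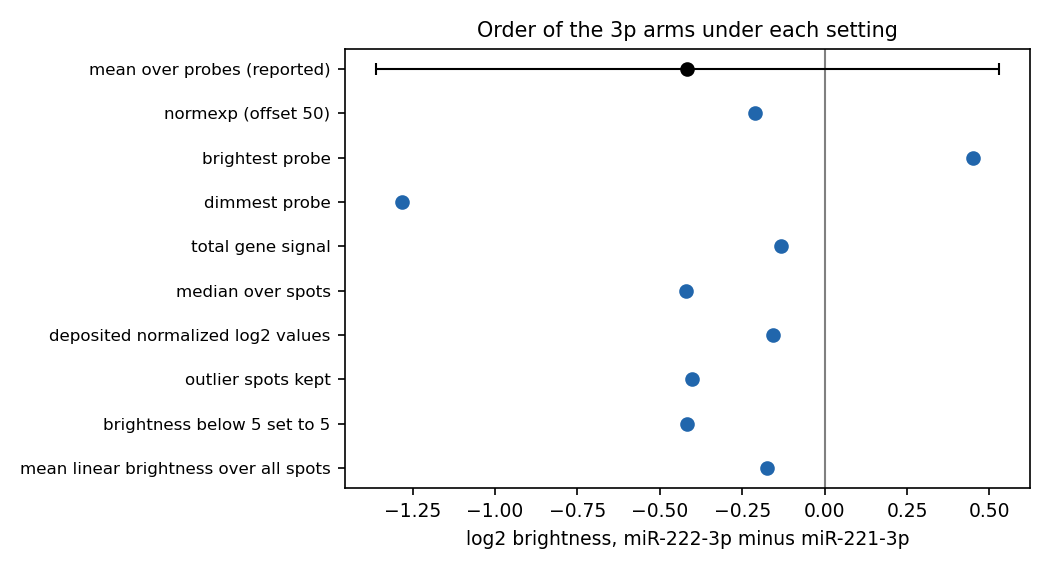
Difference in log2 brightness between miR-222-3p and miR-221-3p, as reported (black, with the standard error over probes) and under 9 other settings (blue). The difference is below 0 under 8 of them and is 0.45 with the brightest probe of each miRNA.

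The deposited summaries give 1 value for each product. The scanner software, which adds up the probes of a miRNA, gave total signals of 51.9 for miR-221-3p and 47.4 for miR-222-3p. The deposited normalized log2 values were 5.32 and 5.16, or 40.0 and 35.8 on the linear scale. Since these totals merge the probes of miR-222-3p, they hide that disagreement.

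Among the 1448 detected human miRNAs, 30.7% had a higher mean log2 brightness than miR-221-3p and 36.7% a higher one than miR-222-3p. The 75th percentile over detected probes lay at a brightness of 248.8, and relative to it the log2 signals were -0.82 ± 0.09 for miR-221-3p and -1.24 ± 0.08 for miR-222-3p (SD between spots of a probe). Both were below this reference, and above it, at 0.97 and 0.55, when undetected probes were counted in the percentile too. The spot SD leaves out the gap between the miR-222-3p probes, which were at -0.30 and -2.18. The standard error over probes was 0.94 for miR-222-3p and 0.07 for miR-221-3p. The median detected miRNA was at -2.06 on the scale of detected probes. For miR-222-3p the share of brighter miRNAs ran from 27.4%, when every miRNA was taken by its brightest probe, to 47.2%, when taken by its dimmest. For miR-221-3p the same shares were 34.0% and 28.5%.

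Neighbouring hairpins offered a further yardstick for the pair. The brighter detected products of 88 hairpin pairs that lie within 10 kb on 1 strand, this pair included, had a median log2 difference of 1.72 (quartiles 0.79 and 2.99). Of these pairs, 11 (12.5%) differed by less than the 0.42 between MIR221 and MIR222. This is a description of probe brightness across hairpins, and the probe error of 0.94 for the pair is larger than the value that was ranked.

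The 5p products were at the level of the negative controls. hsa-miR-221-5p averaged -2.93 ± 1.26 (SD over 20 spots), its spots running from -5.32 to -1.18 and a median of -2.75. All 20 spots were below 0 after the background correction of the software. Their median raw signal was 18, beside a median local background of 12. The correction therefore removed more than the local background, and a negative value does not mean a spot dimmer than its surroundings. Its probes averaged -2.89 and -2.97. The probes differed from each other by less than the SD of their spots.

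hsa-miR-222-5p averaged -1.15 ± 1.98 (SD over 20 spots), its spots running from -4.53 to 1.72 and a median of -1.38. Its 4 probes averaged 0.48, -0.17, -1.50 and -3.42. The SD of 5 spots within a probe was between 1.02 and 1.56, so the brightest and the dimmest of these probes lay further apart than their spots. No spot of either 5p product was well above background, and none was positive and significant over background in the software's looser flag.

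The 1000 negative control spots, from 7 probes, had a median of -2.35 and a 99th percentile of 12.5. Of these control spots, 32.6% were brighter than the brightest miR-221-5p spot and 16.7% brighter than the brightest miR-222-5p spot. The signal of the 5p products could not be told from that of the negative control probes. The software gave each the total signal of 0.1 that it assigns to all 1101 undetected human miRNAs, and the deposited value was the shared lowest one, 2.32, or 5.0 on the linear scale. These are placeholders and do not rank the 5p products.

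In contrast, the 3p products were clear of the background on each probe. The probes of miR-221-3p were 11.9 and 10.7 times the 99th percentile of negative control brightness, and those of miR-222-3p 16.2 and 4.40 times. The brightest of the negative control probes had a median of 8.62, and the medians of the others reached at most 2.27. Without the brightest the 99th percentile was 5.58, and the dimmer miR-222-3p probe was 9.86 times that level. The lowest mean brightness of any human probe with a share of 0.5 or more of spots well above background was 16.0. Taking that level for the undetected 5p product, the dimmer probe of miR-221-3p was at least 8.38-fold and that of miR-222-3p at least 3.45-fold brighter. For the brighter probes the values were 9.29-fold and 12.7-fold. These are bounds on brightness between different probes, not on the ratio of RNA molecules.

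A detected 3p product beside an undetected 5p product was found for 144 of the 810 miRNAs with both products on the array, which is 17.8% of them, and for 2 of 2 in this family. The opposite arrangement, 5p without 3p, was more frequent, with 232 pairs (28.6%). Both products were detected for 255 pairs and neither for 179. Among the 144 pairs with 3p alone, the 3p products had a median brightness of 45.6, converted back from the mean log2 value. Of these products, 35 were brighter than miR-221-3p and 41, with miR-221-3p itself, brighter than miR-222-3p. Of 302 detected products at least as bright as miR-222-3p that had a partner on the array, 151 had an undetected partner. Both 3p members are among these 302 and the 151.

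**Figure D4:**
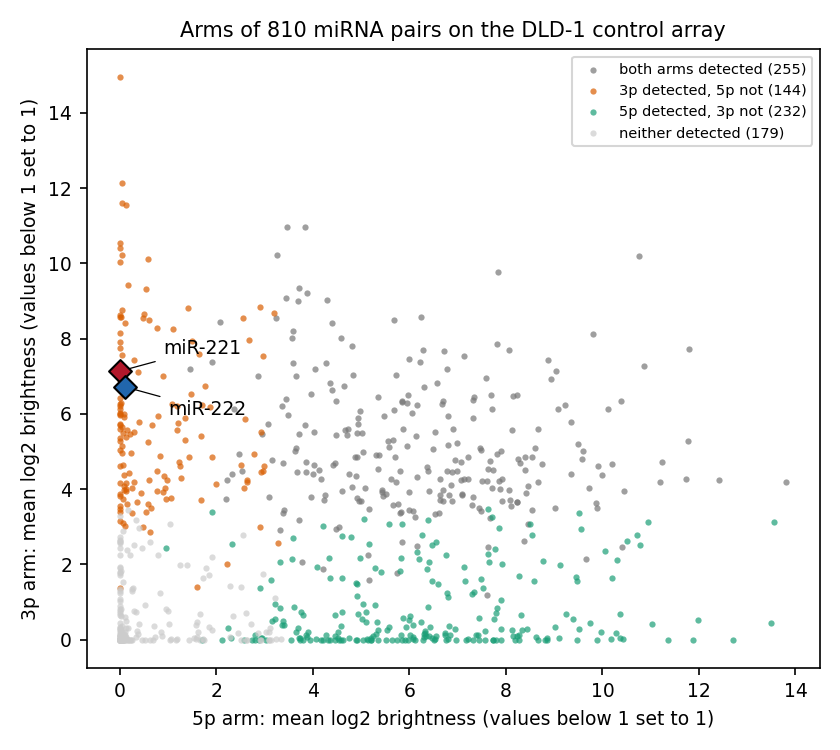
Mean log2 brightness of the 3p product against the 5p product for 810 miRNAs of the DLD-1 control array, with brightness below 1 set to 1. Colours give which products were detected, and diamonds mark miR-221 and miR-222, which lie at the left edge among the 144 pairs with 3p alone.

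Other miRNAs known to target inhibitors of the same class were read as context. CDKN1A (p21), CDKN1B (p27) and CDKN1C (p57) form the CIP/KIP group, and 11 of 12 listed miRNAs were matched by name, with miR-106a-5p not analysed here. Of the 11, 10 were detected, a share of a short list to be read beside the 56.8% of all human miRNAs. All 5 of the CDKN1A group were detected, as were 3 of 4 of the CDKN1B group and 2 of 2 of the CDKN1C group. The brightest was miR-181a-5p, of the CDKN1B group, at 378.2 ± 61.9 (SD over 19 spots). The dimmest detected was miR-20b-5p, of the CDKN1A group, at 14.1 ± 3.02 (SD over 20 spots), with 1 spot well above background. miR-148a-3p was not detected. The median log2 signal of the detected members of this list was -3.17, beside -2.06 for all detected miRNAs. miR-221-3p and miR-222-3p were at -0.82 and -1.24, and the dimmer miR-222-3p probe alone was at -2.18. Of the list, 3 miRNAs, miR-181a-5p, miR-93-5p and miR-25-3p, were brighter than either 3p product on the mean over probes, a comparison between different probes. For miR-25-3p the lead over miR-221-3p was smaller than the standard error of 0.07 over the miR-221-3p probes, so their order is not settled. The brighter miR-222-3p probe alone, at -0.30, was above miR-93-5p at -0.61 and miR-25-3p at -0.75. It was below miR-181a-5p at 0.57.

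The cell line label was checked against miRNAs of known cell types. All 5 epithelial miRNAs of the miR-200 family were detected, beside 56.8% of all human miRNAs. Their brightness was uneven, with miR-141-3p at 3024 ± 401.1 (SD over 20 spots) far above the rest. miR-200c-3p was at 85.3, miR-200b-3p at 81.2, miR-429 at 30.9 and miR-200a-3p at 18.3. Of 3 intestinal miRNAs, miR-215-5p was detected at 45.9, while miR-192-5p and miR-194-5p were not. Of 10 miRNAs of blood, endothelial, stromal, muscle, liver and nerve cells, 6 were also flagged as detected, at 14.2 to 77.2, and 4, miR-451a, miR-143-3p, miR-1-3p and miR-122-5p, were not. This share is near that of all human miRNAs. The detection flag alone therefore did not set these cell types apart from the rest of the array. Every spot used was well above background for miR-124-3p (nerve) at 77.2, miR-126-3p (endothelial) at 58.9 and miR-145-5p (stromal) at 37.0. All of these were brighter than miR-429 and miR-200a-3p. For miR-223-3p, miR-142-3p and miR-133a-3p, at 14.2 to 16.5, it was 5 of 20, 7 of 17 and 1 of 19 spots. The part of signal from other cells or from related sequences in the 3p values was not tested. miR-221-3p was brighter than all 10 of them, as was the mean of miR-222-3p, while the dimmer miR-222-3p probe at 55.0 was within their range.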

How the data were processed

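Total RNA of the sample was labelled with Cy3 and hybridized to a 1-colour Agilent human miRNA array. The labels describe ligation of the dye to miRNA, and the methods describe labelled cDNA. The deposited intensities are spot brightness on a linear scale, read by the authors with Agilent Feature Extraction 11.0.1.1. The software had corrected the background and set the flags. The authors also deposited log2 values, described as quantile normalized in GeneSpring GX. The arrays normalized together are not named.

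Control spots were left out, as were outlier spots (4.06% of the human miRNA spots). Values under 1 were raised to 1 before log2. A probe took the mean of its spots and a miRNA the mean of its probes. The 75th percentile of 2567 detected probes was subtracted. Named miRNAs were the 4 members, those sharing their seed, and the brightest and dimmest of a CIP/KIP list. miR-148a-3p and the miRNAs in the check of sequence and cell type were named from their result or markers. Members and lists were chosen with earlier results of these data known. Standard errors come from spots, or over probes where stated. The summaries were first tested on simulated data drawn for the same spots and probes. No simulated miRNA was set at background level, and the simulated probe effects were small beside the gap between the miR-222-3p probes. The simulation therefore does not cover these cases. Alternatives covered background correction (normexp of limma 3.58.1 in R 4.3.3, offset 50), scaling, summary, outliers, lower limit and detection. Python 3.11.15, numpy 2.4.6 and pandas 2.3.3 were used. The number of arrays, 1, limits the precision, and no p-value is given.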

Additional observations from a re-analysis of the deposited data

How the results depend on the processing

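The 2 members detected were 2 under 3 other detection criteria. The 1448 human miRNAs detected ranged from 1168 to 1756 under the same criteria. The 2 members with a probe at least 2-fold above background were 2 under 2 other background levels, normexp correction and a margin of 4-fold. The share of all human miRNAs with such a probe was not counted, so this count cannot be set against the array. The log2 signals of -0.82 for miR-221-3p, -1.24 for miR-222-3p, -7.96 for miR-221-5p and -7.86 for miR-222-5p became 0.97, 0.55, -6.17 and -6.07 with the percentile over all probes, which includes undetected ones and is lower. They became -0.62, -0.83, -2.44 and -2.39 after normexp correction, in which the offset of 50 narrows every ratio. The values of both 5p products were -5.64 with a lower limit of 5, since all their spots then lie at the limit. From the total signal the 3p products were at -0.55 and -0.68. miR-222-3p was at -0.30 by its brightest probe and at -0.99 from the linear mean over spots, a setting added after the data were examined.

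The 3p minus 5p differences, 7.14 for miR-221 and 6.62 for miR-222, rest on the lower limit given to the 5p products. They were 1.82 and 1.56 after normexp correction, 4.81 and 4.40 with a lower limit of 5, and 3.00 and 2.84 in the deposited values. For miR-222 the difference was 7.40 with the brightest probes, 5.78 with the dimmest and 6.96 from the linear means. The total signal gave no value where a 5p product was undetected. miR-222-3p minus miR-221-3p, -0.42 as reported, turned to 0.45 with the brightest probes. It was -1.28 with the dimmest probes, -0.21 after normexp correction, -0.13 from the total signal, -0.16 in the deposited values and -0.18 from the linear means. The difference between the 5p products, 0.10, stayed within the spread of the spots and compares values at background. The normexp setting changed the background correction and added the offset together, and their effects were not separated. Apart from the percentile and the lower limit, the cause of the shifts was not tested. No paired analysis was possible because only 1 sample was analysed.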
